A study of Homo sapiens with 12 samples.

Results

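The genes described here copy DNA and supply its building blocks. They are 44 named genes of origin licensing, the MCM helicase, the replicative polymerases and their cofactors, S-phase entry and deoxynucleotide synthesis. They were chosen by symbol, and each matched 1 Ensembl identifier in the count tables, which list 63677 genes. All 44 passed the filter on low counts and were among the 12864 genes tested. RNA came from SET-2 cells, an established human line that the labels call acute myeloid leukemia, and was read with libraries that read the 3' ends of polyadenylated RNA. The groups were insR cells given GSK-LSD1, insR cells given DMSO, WT cells given GSK-LSD1 and WT cells given DMSO, with 3 libraries each. GSK-LSD1, an irreversible inhibitor of the histone demethylase LSD1, was given at 250 nM, the vehicle DMSO at 0.1% (v/v), and both for 48 h. The insR cells carry LSD1 with an inserted arginine (Leu659_Asn660insArg) and are labelled drug-resistant, and WT cells have wild-type LSD1. The sources used here do not give whether the insR cells are 1 clone or whether the replicates were separate cultures. The p-values therefore measure the spread between these libraries alone, and that spread may be technical.

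Before S phase, the origin recognition complex, CDC6 and CDT1 load the MCM helicase onto DNA as an inactive double ring. Cyclin E with CDK2, and the DBF4-dependent kinase, then allow CDC45 and the GINS complex to join the MCM ring and open the origin. Polymerase alpha with primase starts each strand, polymerases delta and epsilon extend it on the PCNA clamp loaded by RFC, and FEN1 and LIG1 join Okazaki fragments. Many of these genes are transcribed at the boundary of G1 and S phase under E2F factors and their RNA is most abundant as cells enter S phase. In bulk libraries such as these, fewer cells of a type and less RNA per cell cannot be told apart.

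Reads in genes numbered 4837096 to 6615832 per library in insR GSK-LSD1, 5789614 to 10141155 in insR DMSO, 5022916 to 9599482 in WT GSK-LSD1 and 5562853 to 7438754 in WT DMSO. The member with the fewest reads had 27 to 67 reads per library, and the limit that a 0 allows is 3 counts. Levels are edgeR CPM, reads in a gene scaled to the library's total, after TMM scaling between libraries. Genes that did not pass the filter, and the 2 marker sums below, which include such genes, are CPM without TMM scaling. Of 8 haematopoietic markers, PTPRC, GATA1, TAL1, KIT, CD34, SPI1 and LYZ were expressed, and MPO was at 0 to 0.94 CPM. Their summed level was 1620 to 1678 CPM in insR GSK-LSD1, 1516 to 1661 in insR DMSO, 2207 to 2272 in WT GSK-LSD1 and 1442 to 1488 in WT DMSO. Of 7 epithelial and stromal markers, KRT19 and PECAM1 had 0 reads in every library, and the summed level of the list was 7.65 to 10.7 CPM in insR GSK-LSD1, 13.6 to 16.2 in insR DMSO, 4.88 to 5.97 in WT GSK-LSD1 and 0.899 to 3.90 in WT DMSO. KDM1A, the LSD1 gene, was at 106 ± 4.56 CPM in insR GSK-LSD1, 109 ± 2.18 in insR DMSO, 217 ± 3.01 in WT GSK-LSD1 and 265 ± 26.5 in WT DMSO (SD, n = 3 each). Its counts do not show the insertion, so they do not check the genotype.

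Most of the replication genes were lower in WT cells given GSK-LSD1 than in WT cells given DMSO. Of the 44 members, 30 fell, 1 rose and 13 did not pass the test (edgeR quasi-likelihood test, Benjamini-Hochberg adjusted p under 0.05 over all genes tested). These were 68.2% and 2.27% of the members, where 22.5% of all genes tested fell and 22.7% rose. The median log2 fold change of the members was -0.32, within a range of -1.16 to 0.26, where that of all genes was 0.01. The libraries of the treated and untreated WT groups did not overlap for 29 members that were lower and 1 that was higher, and of all genes tested 25.4% were lower and 26.5% higher without overlap. The mean log2 CPM over the 44 members was 5.79 to 5.83 per library in WT GSK-LSD1 and 6.14 to 6.20 in WT DMSO. The changes were small for single genes, since 1 member, POLE2, changed at least 2-fold. The summed haematopoietic marker level was higher in the treated WT libraries, as given above, but its members moved both ways. PTPRC was at 989, 894 and 953 CPM in WT GSK-LSD1 and 427, 419 and 447 in WT DMSO, and CD34 at 671, 713 and 704 in WT GSK-LSD1 and 298, 308 and 279 in WT DMSO. KIT was lower, at 262, 246 and 252 CPM in WT GSK-LSD1 and 409.6, 411 and 399.8 in WT DMSO, as were TAL1, at 113, 114 and 107 in WT GSK-LSD1 and 171, 159.8 and 155 in WT DMSO, and GATA1, at 52.9, 39.9 and 44.6 in WT GSK-LSD1 and 72.7, 68.2 and 71.3 in WT DMSO. SPI1 was higher, at 24.96, 22.85 and 20.47 CPM in WT GSK-LSD1 and 11.06, 10.58 and 9.288 in WT DMSO. LYZ was also higher, at 109.1, 134 and 140.1 CPM in WT GSK-LSD1 and 85.15, 94.59 and 70.38 in WT DMSO. None of these markers overlapped between the groups. Reads outside genes made up 18.4% to 19.5% of unique reads in WT GSK-LSD1 and 16.3% to 16.7% in WT DMSO. The part of the markers and of these reads in the result was not tested.

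**Figure D1:**
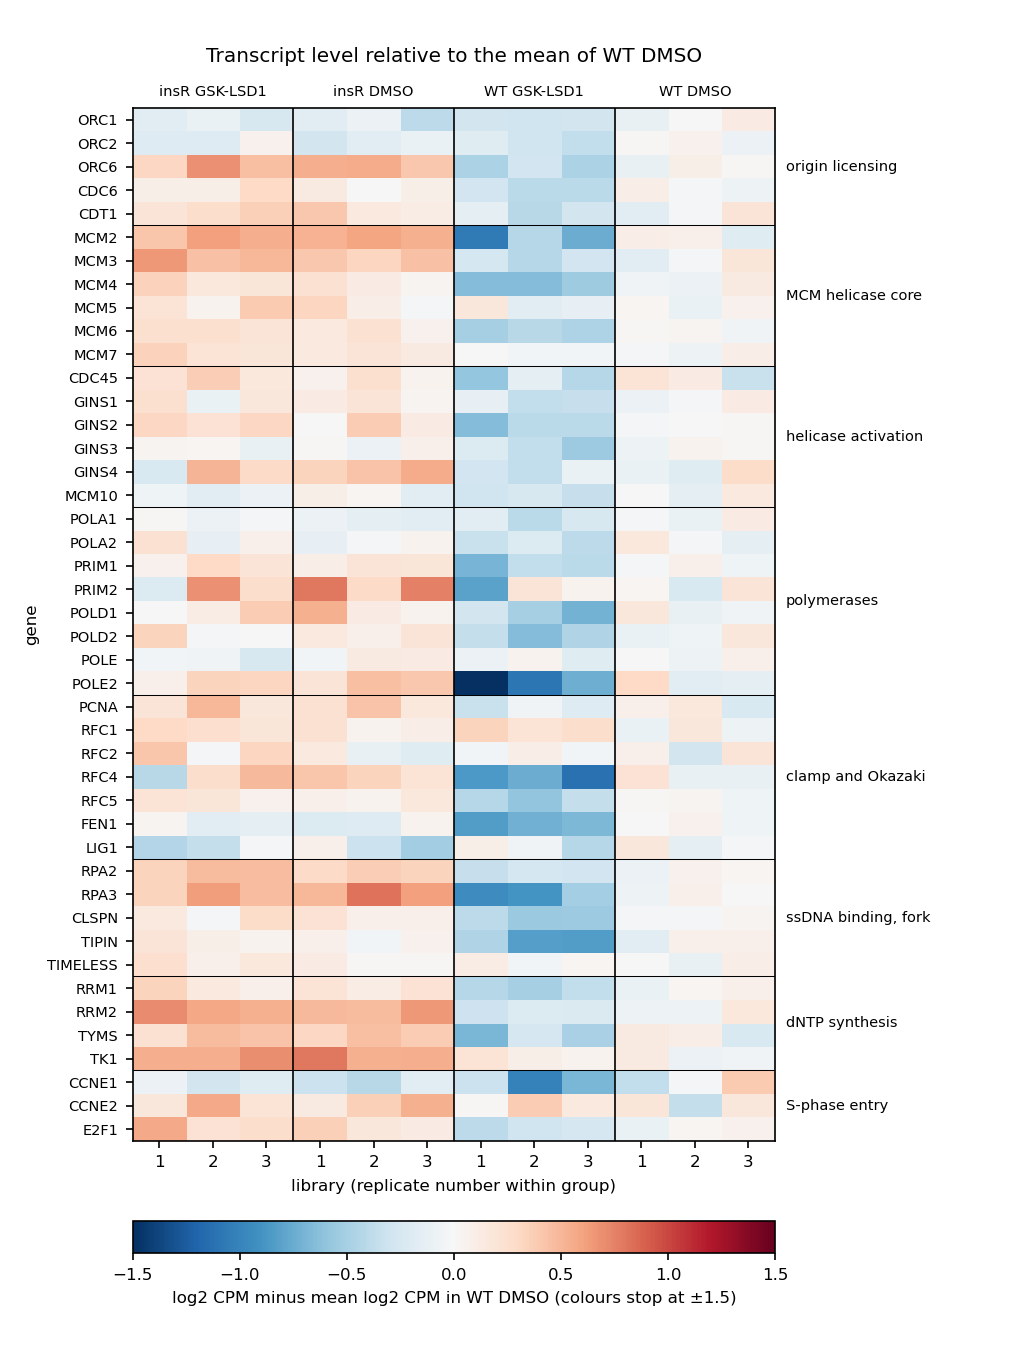
Level of each of the 44 members (rows, grouped by role) in each of the 12 libraries (columns, by group), as log2 CPM minus the mean of the WT DMSO libraries, with colours that stop at -1.5 and 1.5. The 3 WT GSK-LSD1 columns are lower for most members, and the insR columns look alike with and without the drug.

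Promoters are shown for 6 members, 1 for each of 6 roles, that fell in WT cells and hold an E2F motif in the window read, because E2F sites at the start are a known feature of this gene class. Each runs from 250 bases before to 50 bases after the start in RefSeq, on build GRCh38.p14, while the deposited counts use hg19. The 4 forms searched, on both strands, were TTCCCGC as the first, TTGGCGC as the second, TTCGCGC as the third and TTGCCGC as the fourth. Matches can overlap, and capitals mark every match. The windows are POLE2 at chr14:49688165-49688464 on the minus strand, RFC4 at chr3:186806433-186806732 on the minus strand, MCM2 at chr3:127598161-127598460 on the plus strand, TIPIN at chr15:66356636-66356935 on the minus strand (the second of 2 listed starts), GINS2 at chr16:85688905-85689204 on the minus strand and TYMS at chr18:657403-657702 on the plus strand.
POLE2: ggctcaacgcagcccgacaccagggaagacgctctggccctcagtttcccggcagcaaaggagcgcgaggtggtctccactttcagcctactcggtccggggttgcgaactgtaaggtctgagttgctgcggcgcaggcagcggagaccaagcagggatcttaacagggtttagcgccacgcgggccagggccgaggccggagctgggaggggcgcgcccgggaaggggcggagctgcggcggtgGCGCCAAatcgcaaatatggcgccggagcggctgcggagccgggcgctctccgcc
RFC4: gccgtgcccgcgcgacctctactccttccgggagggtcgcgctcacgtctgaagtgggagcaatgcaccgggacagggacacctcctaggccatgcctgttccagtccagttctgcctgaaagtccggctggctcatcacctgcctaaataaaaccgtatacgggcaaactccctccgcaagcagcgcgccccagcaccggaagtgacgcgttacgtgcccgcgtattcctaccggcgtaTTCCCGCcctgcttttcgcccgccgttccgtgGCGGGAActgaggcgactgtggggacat
MCM2: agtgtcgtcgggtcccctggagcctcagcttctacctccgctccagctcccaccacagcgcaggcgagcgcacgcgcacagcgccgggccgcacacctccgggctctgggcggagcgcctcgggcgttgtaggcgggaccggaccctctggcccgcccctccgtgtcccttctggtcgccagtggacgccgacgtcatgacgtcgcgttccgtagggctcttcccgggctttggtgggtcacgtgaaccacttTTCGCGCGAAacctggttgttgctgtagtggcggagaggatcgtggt
TIPIN: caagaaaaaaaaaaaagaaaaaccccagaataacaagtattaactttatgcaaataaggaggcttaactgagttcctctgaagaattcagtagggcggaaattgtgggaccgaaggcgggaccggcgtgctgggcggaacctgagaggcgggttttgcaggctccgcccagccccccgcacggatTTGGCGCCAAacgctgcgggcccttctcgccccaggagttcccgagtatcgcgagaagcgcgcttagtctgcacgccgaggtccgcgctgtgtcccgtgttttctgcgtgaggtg
GINS2: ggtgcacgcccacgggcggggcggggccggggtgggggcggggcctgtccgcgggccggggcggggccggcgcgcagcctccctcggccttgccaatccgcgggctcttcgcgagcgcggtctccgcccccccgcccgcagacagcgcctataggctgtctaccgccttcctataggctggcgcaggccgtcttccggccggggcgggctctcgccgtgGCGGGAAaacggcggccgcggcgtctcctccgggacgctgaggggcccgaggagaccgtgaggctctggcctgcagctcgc
TYMS: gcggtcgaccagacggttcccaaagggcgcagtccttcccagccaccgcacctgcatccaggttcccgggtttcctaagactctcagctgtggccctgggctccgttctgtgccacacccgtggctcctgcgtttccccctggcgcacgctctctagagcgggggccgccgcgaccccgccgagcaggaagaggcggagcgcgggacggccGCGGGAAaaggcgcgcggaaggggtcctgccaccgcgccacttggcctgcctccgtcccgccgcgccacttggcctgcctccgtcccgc

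The matches in these 6 windows lay between 65 bases before and 29 bases after the start, and in MCM2 and TIPIN pairs of matches overlapped into 1 run. A match is a description of the letters and not evidence of a bound factor. Of the 44 members, 38 had an entry in the promoter table, and 29 of these (76.3%, exact 95% interval 59.8% to 88.6%) held at least 1 of the 4 forms. The share was 24.9% of 9614 tested genes with an entry, 15.3% of all 27305 genes of the table and 27.6% of 29 mitosis genes. With only the first and second forms, the shares were 65.8% of members, 17.9% of tested genes and 13.8% of mitosis genes. Of the 29 members with a match, 19 fell and 1 rose in WT cells, with a median log2 fold change of -0.32, and of the 9 without a match 8 fell, with a median of -0.42. The 6 members with no entry had 3 that fell and a median of -0.27.

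**Figure D2:**
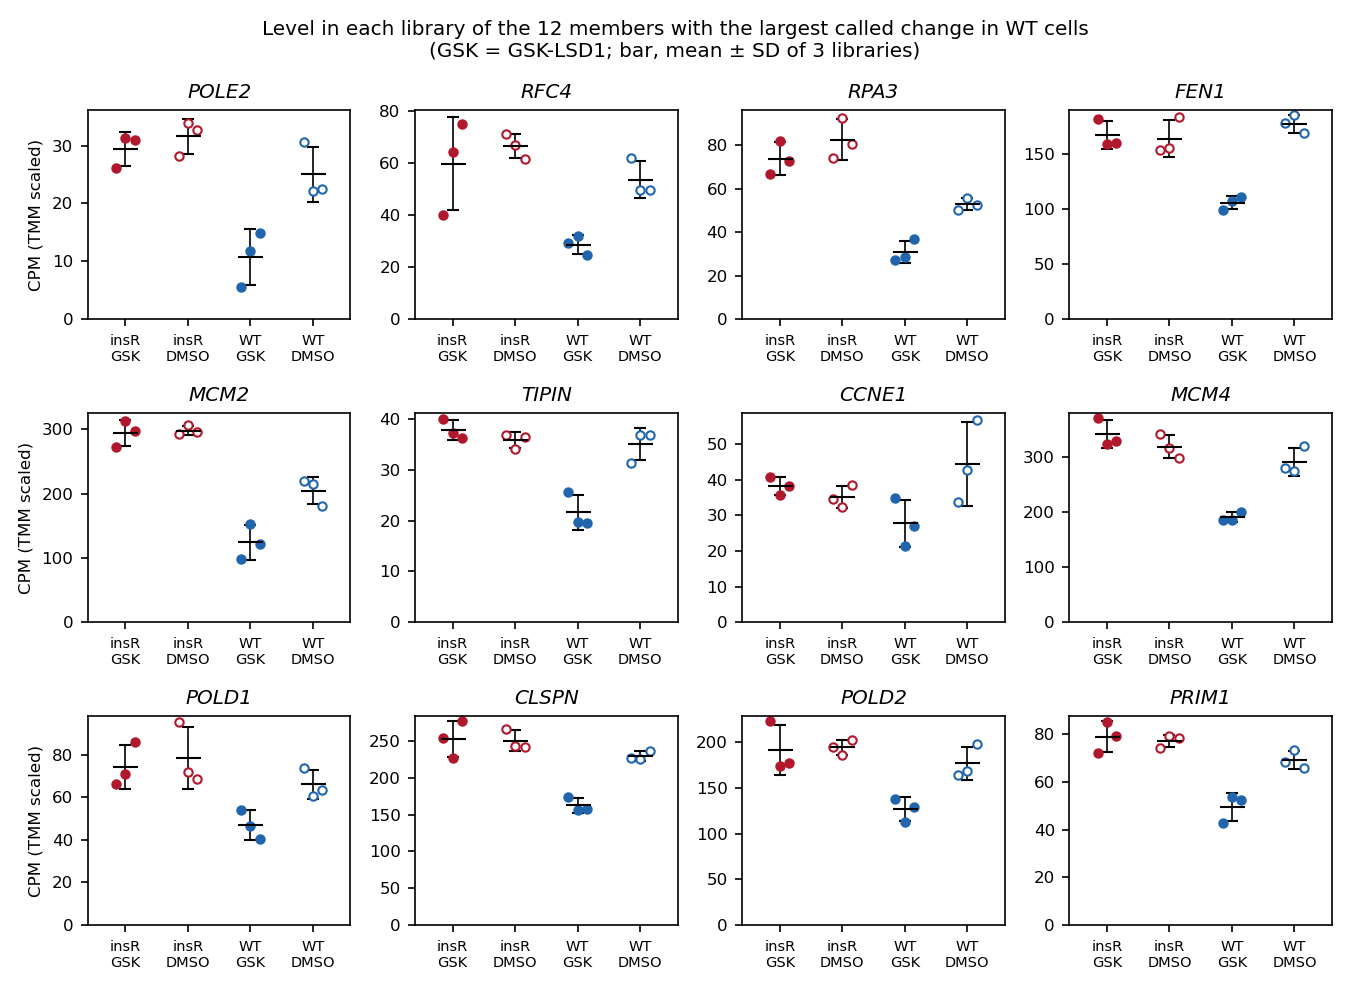
Level in CPM of 12 members in each library (points), with the group mean and SD (bars), for insR GSK-LSD1, insR DMSO, WT GSK-LSD1 and WT DMSO. WT GSK-LSD1 is the lowest group in the panels of POLE2, FEN1 and MCM2, and the insR groups lie close together.

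Among the licensing genes, which mark and load origins, 4 of 5 fell in WT cells. ORC6 and CDC6 had log2 fold changes of -0.42 (adjusted p = 0.00427) and -0.37 (adjusted p = 0.00185). ORC2, a core subunit of the origin recognition complex, changed by -0.29 (adjusted p = 0.0189) and the loader CDT1 by -0.28 (adjusted p = 0.0451), and for CDT1 the 2 groups overlapped. ORC1, an ATPase subunit, had -0.29 (adjusted p = 0.074) and was not called, although its libraries did not overlap.

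Of the 6 subunits of the MCM helicase ring, 4 fell. MCM2 was at 98.1, 152 and 122 CPM in WT GSK-LSD1, against 219, 215 and 179.9 CPM in WT DMSO, a log2 fold change of -0.73 (SE 0.12, adjusted p = 4.89e-05). MCM4 was at 186, 185 and 201 CPM in WT GSK-LSD1, against 281, 275 and 321 CPM in WT DMSO, a log2 fold change of -0.61 (SE 0.08, adjusted p = 2.11e-06). Every treated library was below every untreated library for both genes. MCM6 changed by -0.46 (adjusted p = 2.32e-05) and MCM3 by -0.33 (adjusted p = 0.00303). MCM5 and MCM7, subunits of the same ring, had log2 fold changes of -0.04 (95% interval -0.25 to 0.18, adjusted p = 0.791) and -0.03 (-0.18 to 0.13, adjusted p = 0.792). The intervals of these 2 subunits do not reach the estimates of MCM2, MCM4, MCM6 or MCM3, although differences between subunits were not tested.

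Of the genes that turn the loaded ring into an active helicase, 4 of 6 fell. The GINS subunits GINS2 and GINS3 had log2 fold changes of -0.48 (adjusted p = 0.0031) and -0.38 (adjusted p = 0.0167). CDC45, the partner of MCM and GINS in the moving helicase, changed by -0.40 (adjusted p = 0.0259) with overlapping libraries, and MCM10, needed to start unwinding, by -0.30 (adjusted p = 0.011). GINS1 had -0.28 (adjusted p = 0.0558) without overlap, and GINS4 had -0.24 (adjusted p = 0.365), and neither was called.

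POLE2, the second subunit of the leading-strand polymerase epsilon, fell most of all members. It was at 5.48, 11.7 and 14.97 CPM in WT GSK-LSD1, against 30.6, 22.1 and 22.5 CPM in WT DMSO, and the log2 fold change was -1.16 (SE 0.23, adjusted p = 0.000757). The catalytic subunit POLE had -0.08 (adjusted p = 0.606) and was not called. Both polymerase delta members fell. POLD1, its catalytic subunit, was at 54.3, 46.5 and 40.2 CPM in WT GSK-LSD1, against 73.9, 60.8 and 63.6 CPM in WT DMSO, a log2 fold change of -0.50 (SE 0.14, adjusted p = 0.00686). POLD2 was at 138, 112 and 129.5 CPM in WT GSK-LSD1, against 165, 169 and 198 CPM in WT DMSO, a log2 fold change of -0.48 (SE 0.10, adjusted p = 0.000367). In neither gene did the groups overlap. PRIM1, the catalytic primase subunit that lays RNA primers, was at 42.7, 53.6 and 52.3 CPM in WT GSK-LSD1, against 68.5, 73.2 and 65.9 CPM in WT DMSO, a log2 fold change of -0.48 (SE 0.10, adjusted p = 0.000409). POLA1 and POLA2 of polymerase alpha changed by -0.27 (adjusted p = 0.0111) and -0.32 (adjusted p = 0.0322). PRIM2, the large primase subunit, had -0.10 (adjusted p = 0.763), and its value is uncertain because the genome holds a near-identical partial copy.

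The clamp loader RFC, which opens PCNA and sets it around DNA, had members that moved in opposite directions. RFC4 was at 29.3, 31.9 and 24.6 CPM in WT GSK-LSD1, against 61.97, 49.4 and 49.5 CPM in WT DMSO, a log2 fold change of -0.92 (SE 0.19, adjusted p = 0.00131). RFC5 changed by -0.45 (adjusted p = 0.00103). RFC1, the large subunit, was the 1 member that rose, at 117, 107 and 112 CPM in WT GSK-LSD1, against 86.9, 105 and 88.2 CPM in WT DMSO, a log2 fold change of 0.26 (SE 0.09, adjusted p = 0.0187). The libraries of RFC1 did not overlap. RFC2 was at a log2 fold change of 0.00 (adjusted p = 0.999). FEN1, the nuclease that trims Okazaki fragment flaps, was at 99.3, 108 and 111 CPM in WT GSK-LSD1, against 178, 185 and 169 CPM in WT DMSO, a log2 fold change of -0.74 (SE 0.09, adjusted p = 2.54e-07). It had the lowest adjusted p of all members in this comparison. The PCNA clamp and the ligase LIG1, which act beside FEN1, had -0.20 (adjusted p = 0.163) and -0.12 (adjusted p = 0.607) and were not called.

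Single-strand binding and fork protection genes fell in 4 of 5 cases. RPA3, the smallest subunit of the RPA complex that coats single-stranded DNA, was at 27.4, 28.4 and 36.96 CPM in WT GSK-LSD1, against 50.04, 55.6 and 52.7 CPM in WT DMSO, a log2 fold change of -0.75 (SE 0.12, adjusted p = 2.27e-05). TIPIN was at 25.7, 19.8 and 19.6 CPM in WT GSK-LSD1, against 31.4, 36.98 and 36.97 CPM in WT DMSO, a log2 fold change of -0.71 (SE 0.13, adjusted p = 6.58e-05). TIPIN acts at the fork as a dimer with TIMELESS, which had 0.03 (adjusted p = 0.769) and was not called. CLSPN, the claspin adaptor that links the fork to the kinase CHK1, was at 175, 156 and 158 CPM in WT GSK-LSD1, against 227, 225 and 237 CPM in WT DMSO, a log2 fold change of -0.50 (SE 0.08, adjusted p = 2.83e-05). RPA2 changed by -0.30 (adjusted p = 0.0039). The libraries of RPA3, TIPIN, CLSPN and RPA2 did not overlap.

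Deoxynucleotide synthesis fell in 3 of 4 members. RRM1 and RRM2, the large and small subunits of ribonucleotide reductase, changed by -0.43 (adjusted p = 0.000108) and -0.25 (adjusted p = 0.0239). TYMS, the thymidylate synthase that makes dTMP from dUMP, changed by -0.47 (adjusted p = 0.000951). TK1, the salvage kinase that makes dTMP from thymidine, had 0.11 (adjusted p = 0.338) and was not called. Of the S-phase entry genes, CCNE1, which encodes cyclin E1, was at 34.8, 21.5 and 26.98 CPM in WT GSK-LSD1, against 33.7, 42.7 and 56.98 CPM in WT DMSO, a log2 fold change of -0.68 (SE 0.17, adjusted p = 0.00323). Its highest treated library lay above its lowest untreated library. The transcription factor E2F1 changed by -0.31 (adjusted p = 0.0405), and CCNE2 had 0.18 (adjusted p = 0.553) and was not called.

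Of the 31 calls in WT cells, 21 held under every alternative tried, with each of the 6 WT libraries left out in turn among them. Without WT DMSO replicate 1 the calls of CDC45, POLA2 and RFC1 were lost (edgeR adjusted p 0.116 to 0.144). Those of ORC2, CDT1, CDC45, GINS3, POLA2 and E2F1 were lost without WT DMSO replicate 2 (adjusted p 0.0503 to 0.101), and those of CDT1, MCM10, POLA1, RFC1, RRM2 and E2F1 without WT DMSO replicate 3 (adjusted p 0.0611 to 0.22). Leaving out WT GSK-LSD1 replicate 1 ended the calls of CDC45, POLA2, RFC1, RRM2 and E2F1 (adjusted p 0.0582 to 0.106). Leaving out replicate 2 of that group ended those of CDT1, POLA1 and E2F1 (adjusted p 0.0657 to 0.15), and leaving out its replicate 3 those of ORC2, CDT1, CDC45, GINS3, POLA2 and E2F1 (adjusted p 0.0601 to 0.127). The calls of CDT1, POLA2, RRM2 and E2F1 did not survive scaling by the upper quartile either (adjusted p 0.0682 to 0.1). RFC1 and E2F1 missed the threshold when every gene with 1 count was kept (adjusted p 0.0745 and 0.0601), and DESeq2 did not call CDT1 or E2F1 (adjusted p 0.0647 and 0.0637). The call of CDT1 was also absent with limma-voom (adjusted p = 0.0522), and fits to WT libraries alone did not call CDT1, CDC45, POLA2 or E2F1 (adjusted p 0.0531 to 0.0698).

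In insR cells the same treatment moved no member past the test. None of the 44 was called, none had an unadjusted p under 0.05, and the median log2 fold change was 0.03, within a range of -0.37 to 0.29. Of all genes tested, 0.505% were called in this comparison, and 996 had an unadjusted p under 0.05. DESeq2 and the other tools run also called 0 members. The largest estimates in either direction were those of PRIM2, at -0.37 (adjusted p = 0.786), and RFC2, at 0.29 (adjusted p = 0.728). Libraries did not overlap for 1 member, POLA1, which was higher in insR GSK-LSD1, against 7.21% of all genes tested that were higher without overlap. The mean log2 CPM over members was 6.34 to 6.37 per library in insR GSK-LSD1 and 6.32 to 6.36 in insR DMSO.

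The members that fell most in WT cells kept overlapping levels in insR cells. POLE2 was at 26.1, 31.3 and 30.97 CPM in insR GSK-LSD1, against 28.3, 33.98 and 32.7 CPM in insR DMSO, a log2 fold change of -0.10 (95% interval -0.54 to 0.35). FEN1 was at 182, 159 and 159.7 CPM in insR GSK-LSD1, against 153, 155 and 183 CPM in insR DMSO, a log2 fold change of 0.03 (-0.15 to 0.21). Both intervals lie above the estimates of the same genes in WT cells. MCM2 was at 273, 313 and 297 CPM in insR GSK-LSD1, against 292, 306 and 295 CPM in insR DMSO, a log2 fold change of -0.02 (-0.26 to 0.22). MCM4 was at 371, 325 and 329 CPM in insR GSK-LSD1, against 343, 318 and 299.5 CPM in insR DMSO, a log2 fold change of 0.10 (-0.08 to 0.27). No change of these 2 helicase subunits was detectable in insR cells. TIPIN was at 40.1, 37.3 and 36.2 CPM in insR GSK-LSD1, against 36.99, 34.1 and 36.6 CPM in insR DMSO. RPA3 was at 66.6, 81.7 and 72.9 CPM in insR GSK-LSD1, against 74.2, 92.7 and 80.5 CPM in insR DMSO. The groups overlapped for both fork genes, with log2 fold changes of 0.08 and -0.16. RFC4 was at 39.96, 64.1 and 74.95 CPM in insR GSK-LSD1, against 71.04, 66.97 and 61.7 CPM in insR DMSO. CCNE1 was at 40.9, 35.9 and 38.3 CPM in insR GSK-LSD1, against 34.7, 32.5 and 38.7 CPM in insR DMSO. Their log2 fold changes were -0.16 and 0.13, and 1 treated library of RFC4 was far below the others. Across the 44 members the log2 fold changes in insR and in WT cells had a Pearson r of 0.157 and a Spearman rho of 0.13, as a description over genes that share libraries within each comparison.

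**Figure D3:**
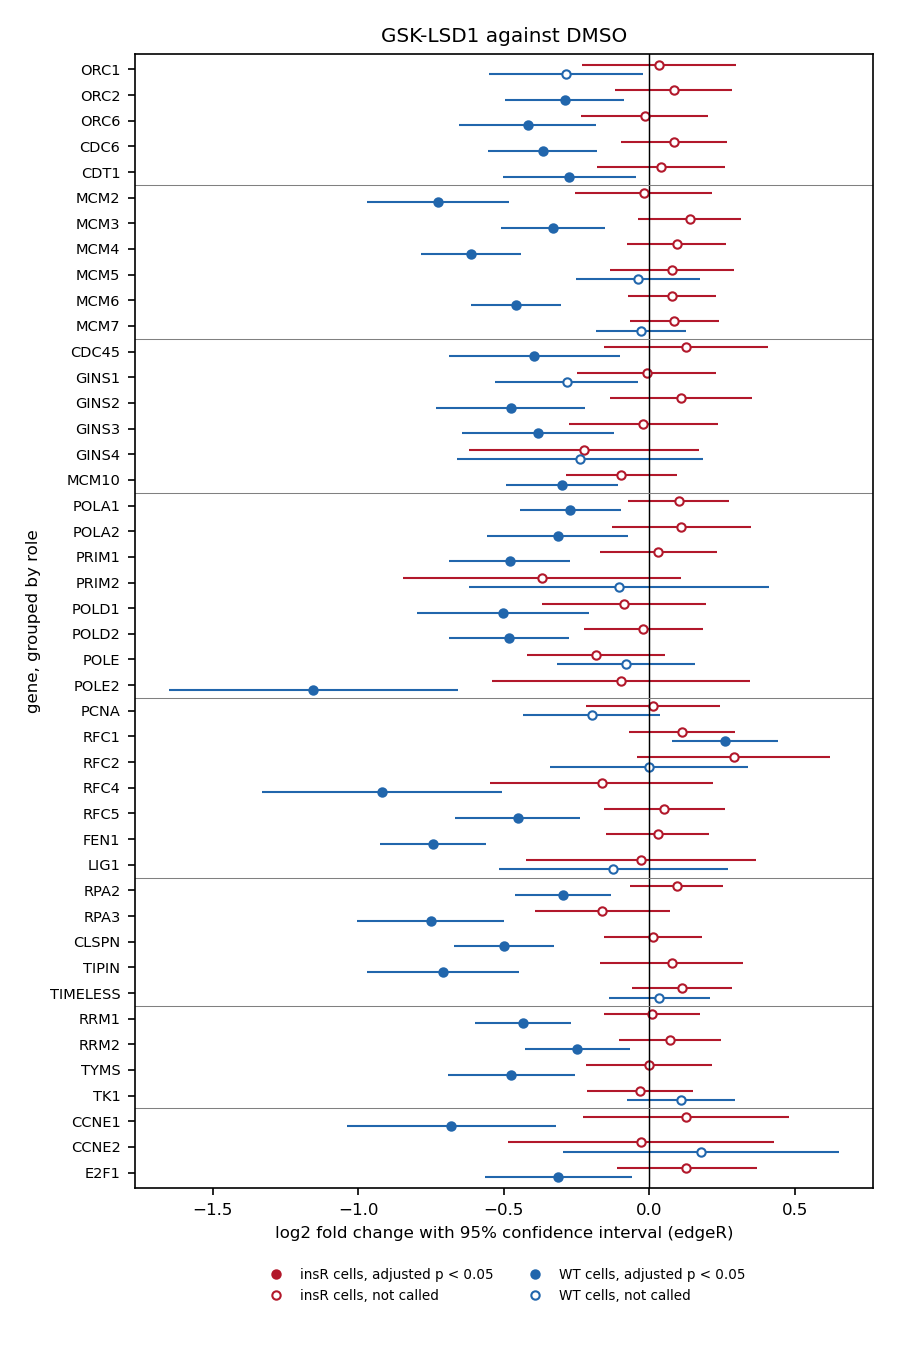
Log2 fold change of GSK-LSD1 against DMSO for each member (rows), in insR cells (red) and WT cells (blue), with 95% intervals, where filled points passed the test. The blue points lie mostly left of 0, with POLE2 at -1.16, and no red point is filled.

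The difference between the drug responses was tested directly, as the insR response minus the WT response. It was positive and called for 20 members (45.5%) and negative and called for none. Of all genes tested, 13.3% were called positive and 11.8% negative. The median difference is given next for the members. That median was 0.41, within a range of -0.26 to 1.06. The difference was called for 4 of 6 MCM subunits, 4 of 8 polymerase and primase genes, 3 of 7 clamp and Okazaki fragment genes, 4 of 5 single-strand binding and fork genes, 2 of 4 deoxynucleotide genes, and 1 gene each of licensing, helicase activation and S-phase entry. The largest differences were those of POLE2 at 1.06 (SE 0.31, adjusted p = 0.0216), CCNE1 at 0.81 (SE 0.24, adjusted p = 0.0195), TIPIN at 0.79 (SE 0.17, adjusted p = 0.00166) and FEN1 at 0.77 (SE 0.12, adjusted p = 5.69e-05). RFC4 had 0.76 (adjusted p = 0.0486), MCM4 0.71 (adjusted p = 9.16e-05), MCM2 0.71 (adjusted p = 0.00328) and RPA3 0.59 (adjusted p = 0.0108).

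Of the 20 calls, 14 held under every alternative. The RFC4 call was lost on leaving out any 1 of 10 libraries, all but WT GSK-LSD1 replicate 2 and insR GSK-LSD1 replicate 1 (edgeR adjusted p 0.0507 to 0.121). It was also lost with limma-voom, limma-trend, scaling by the upper quartile and a replicate block (adjusted p 0.0564 to 0.0981), so it held in 5 of 19 settings. For TYMS 6 libraries decided the call, namely WT DMSO replicates 1 and 2, replicate 3 of WT GSK-LSD1, replicate 1 of insR DMSO and replicates 2 and 3 of insR GSK-LSD1 (adjusted p 0.0521 to 0.0575 without each). POLE2 missed the threshold without replicate 1 of insR DMSO or replicate 3 of insR GSK-LSD1 (adjusted p 0.0548 and 0.055). CCNE1 missed it without replicate 3 of WT GSK-LSD1, replicate 2 of insR DMSO or replicate 1 of insR GSK-LSD1 (adjusted p 0.0504 to 0.0528). POLA1 missed it without replicate 3 of WT DMSO, replicate 2 of WT GSK-LSD1 or replicate 1 of insR GSK-LSD1 (adjusted p 0.0632 to 0.0755), and POLD2 without replicate 2 of WT GSK-LSD1 or replicate 1 of insR GSK-LSD1 (adjusted p 0.0547 and 0.0808).

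Without the drug, insR cells had higher levels of some replication genes than WT cells. Of the 44 members, 9 (20.5%) were higher and none lower in insR DMSO, against 14.5% and 15.6% of all genes tested. Without WT DMSO replicate 1, 8 were higher and 1 lower, CCNE1, at a log2 fold change of -0.50 (edgeR adjusted p = 0.0191). Reads outside genes made up 13.8% to 17.1% of unique reads in insR DMSO and 16.3% to 16.7% in WT DMSO. The epithelial and stromal sum was higher in insR DMSO, as given above, but its genes did not all differ alike. CDH1 was at 8.84, 9.57 and 8.79 CPM in insR DMSO and 2.46, 0.804 and 0.357 in WT DMSO. COL1A1 was at 3.56, 4.45 and 4.22 CPM in insR DMSO and 0.176, 0.402 and 0.179 in WT DMSO, and PDGFRB was also higher. EPCAM was lower, at 0.296, 0.162 and 0 CPM in insR DMSO and 0.886, 0.538 and 0.36 in WT DMSO, and COL1A2 overlapped. The part of these markers and reads was not tested. The median log2 fold change was 0.15, within a range of -0.33 to 0.64. Deoxynucleotide synthesis had 3 of its 4 members higher. TK1 was at 223, 186 and 188 CPM in insR DMSO, against 142, 121 and 124 CPM in WT DMSO, a log2 fold change of 0.63 (SE 0.09, adjusted p = 4.92e-06). RRM2 was at 166, 164 and 185 CPM in insR DMSO, against 112, 112 and 131 CPM in WT DMSO, a log2 fold change of 0.53 (SE 0.09, adjusted p = 2.61e-05). TYMS was at 368, 405 and 387 CPM in insR DMSO, against 326, 318 and 253 CPM in WT DMSO, a log2 fold change of 0.37 (SE 0.10, adjusted p = 0.00916). The groups did not overlap for TK1, RRM2 and TYMS, and RRM1 had 0.17 (adjusted p = 0.105) and was not called.

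The other higher members were spread over the roles. RPA3 was at 74.2, 92.7 and 80.5 CPM in insR DMSO, against 50.04, 55.6 and 52.7 CPM in WT DMSO, a log2 fold change of 0.64 (SE 0.12, adjusted p = 0.000107). MCM2 was at 292, 306 and 295 CPM in insR DMSO, against 219, 215 and 179.9 CPM in WT DMSO, a log2 fold change of 0.54 (SE 0.11, adjusted p = 0.00106). These 2 genes, and ORC6, MCM3, RPA2, RRM2 and TYMS, were also among those that fell under the drug in WT cells. TK1 and PRIM2 were not called there, and that comparison shares the WT DMSO libraries with this one. ORC6 was at 63.5, 64.2 and 57.7 CPM in insR DMSO, against 40.6, 46.6 and 44.1 CPM in WT DMSO, a log2 fold change of 0.50 (SE 0.11, adjusted p = 0.0009). MCM3 was at 602, 566 and 614 CPM in insR DMSO, against 406, 446 and 516 CPM in WT DMSO, a log2 fold change of 0.38 (SE 0.09, adjusted p = 0.00123). Every insR DMSO library was above every WT DMSO library for ORC6 and MCM3. RPA2 was higher by 0.33 (adjusted p = 0.00217). PRIM2 was at 15.5, 10.9 and 15.1 CPM in insR DMSO, against 9.13, 7.64 and 10.2 CPM in WT DMSO, a log2 fold change of 0.64 (SE 0.24, adjusted p = 0.0417). Leaving out replicate 1 or 2 of WT DMSO, or replicate 1 or 3 of insR DMSO, ended its call (adjusted p 0.0844 to 0.172), as did DESeq2 and limma-trend (adjusted p 0.052 and 0.082), and the other 8 calls held under every alternative. Libraries did not overlap for 18 members that were higher in insR DMSO, and for 1 that was lower, ORC2, at -0.19 (adjusted p = 0.162). The shares of all genes tested without overlap were 20.9% higher and 21.5% lower.

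**Figure D4:**
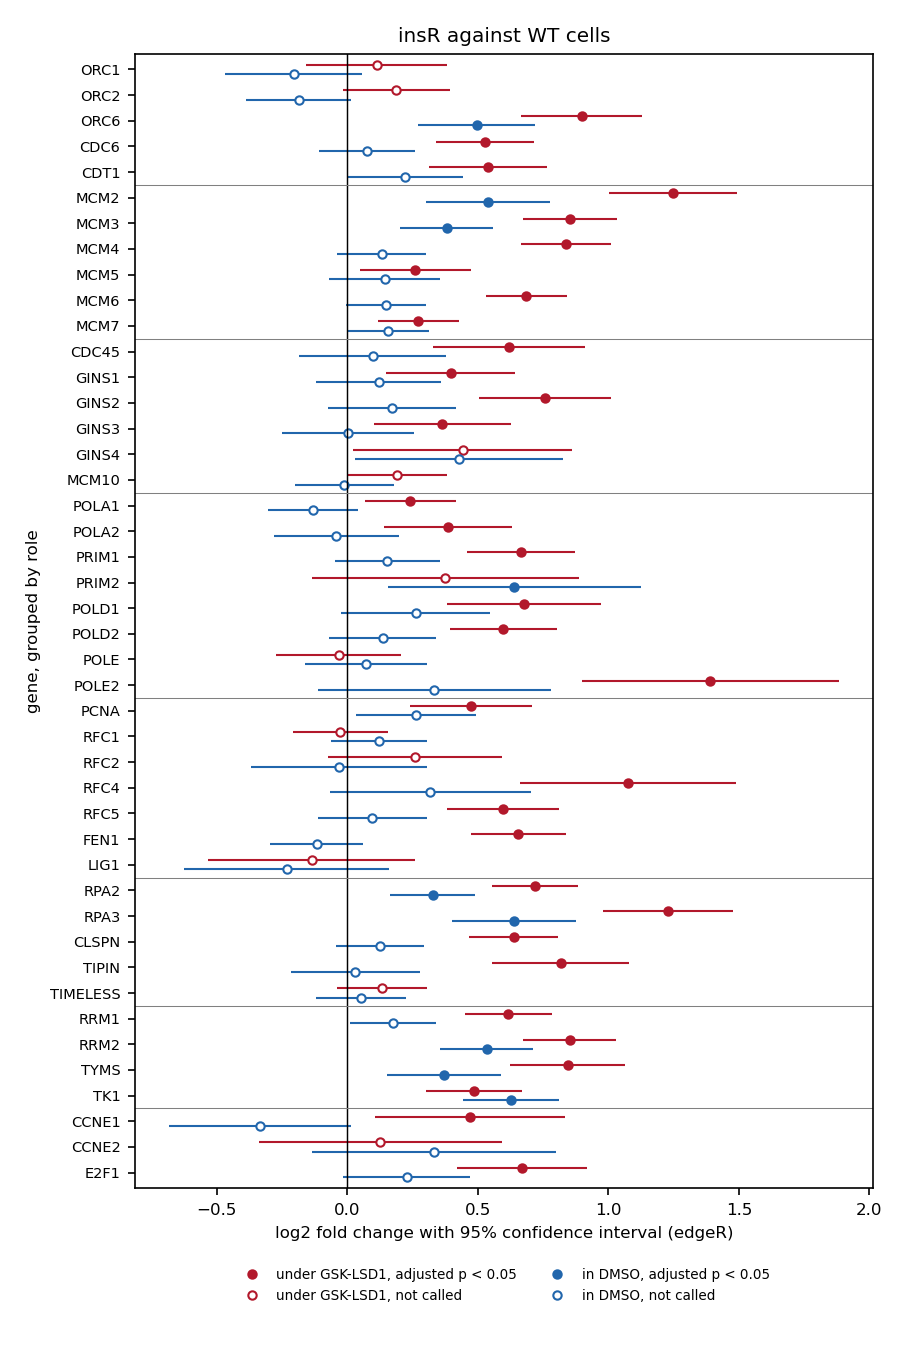
Log2 fold change of insR against WT cells for each member (rows), under GSK-LSD1 (red) and in DMSO (blue), with 95% intervals, where filled points passed the test. Most red points lie right of the blue points, and POLE2 has the largest red value, 1.39.

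Under GSK-LSD1, 33 of the 44 members (75%) were higher in insR than in WT cells and none was lower, against 27% and 27.5% of all genes tested. This comparison shares the WT GSK-LSD1 libraries with the WT response, so its calls are not independent of the falls given above. The median log2 fold change was 0.57, within a range of -0.14 to 1.39, and libraries did not overlap for 34 members, all higher in insR, against 29.7% of all genes tested. Reads outside genes made up 13.7% to 15.1% of unique reads in insR GSK-LSD1 and 18.4% to 19.5% in WT GSK-LSD1, and their part was not tested. All 6 MCM subunits and all 4 deoxynucleotide genes were called. POLE2 had a log2 fold change of 1.39 (SE 0.23, adjusted p = 8.80e-05), MCM2 of 1.25 (SE 0.12, adjusted p = 3.31e-08), RPA3 of 1.23 (SE 0.12, adjusted p = 6.74e-09) and RFC4 of 1.08 (SE 0.19, adjusted p = 0.000259), from the library values given above. ORC6 was at 54.3, 70.1 and 59.6 CPM in insR GSK-LSD1, against 31.4, 35.9 and 31.5 CPM in WT GSK-LSD1, a log2 fold change of 0.90 (SE 0.11, adjusted p = 3.15e-07). MCM3 was at 709.9, 613 and 639 CPM in insR GSK-LSD1, against 376, 338 and 371 CPM in WT GSK-LSD1, a log2 fold change of 0.86 (SE 0.09, adjusted p = 1.14e-08). Both genes act in licensing, ORC6 in origin recognition and MCM3 in the ring. RRM2 was at 193, 176 and 171 CPM in insR GSK-LSD1, against 95.1, 102 and 102 CPM in WT GSK-LSD1, a log2 fold change of 0.85 (SE 0.09, adjusted p = 1.14e-08). TYMS was at 349, 412 and 399.7 CPM in insR GSK-LSD1, against 185, 249 and 212 CPM in WT GSK-LSD1, a log2 fold change of 0.85 (SE 0.11, adjusted p = 7.80e-07). In none of these genes did the groups overlap. Members not called included LIG1, at -0.14 (adjusted p = 0.551), TIMELESS, at 0.13 (adjusted p = 0.185), and RFC1, at -0.03 (adjusted p = 0.818).

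Of the 33 calls, 27 held under every alternative. Leaving out replicate 2 or 3 of WT GSK-LSD1, or replicate 1 or 3 of insR GSK-LSD1, ended the CCNE1 call (edgeR adjusted p 0.0576 to 0.118), and that of MCM5 (adjusted p 0.0686 to 0.174). DESeq2 and scaling by the upper quartile did not call MCM5 either (adjusted p 0.0513 and 0.083). Leaving out insR GSK-LSD1 replicate 1 also ended the calls of GINS1, GINS3, POLA1 and POLA2 (adjusted p 0.0518 to 0.0748), leaving out WT GSK-LSD1 replicate 3 that of GINS3 (adjusted p = 0.12), and leaving out WT GSK-LSD1 replicate 2 that of POLA1 (adjusted p = 0.117), which scaling by the upper quartile ended too (adjusted p = 0.0556).

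Further genes of the same processes were counted from lists of their own. Of 38 tested genes of the other replication machinery, 19 (50%) fell and 1 (2.63%) rose in WT cells under the drug. Of all genes tested, 22.5% fell and 22.7% rose. The median log2 fold change of this list was -0.38. POLE3, a small subunit of polymerase epsilon, had -0.72 (adjusted p = 7.79e-08), the licensing inhibitor GMNN -0.71 (adjusted p = 7.34e-07) and the topoisomerase TOP1 -0.54 (adjusted p = 5.04e-06). POLD3, a small subunit of polymerase delta, rose by 0.70 (adjusted p = 8.55e-06), while POLD1 and POLD2 fell. Of 36 genes of the other nucleotide supply, 26 (72.2%) fell and 1 (2.78%) rose, with a median of -0.41. The folate enzyme MTHFD2 had -0.93 (adjusted p = 1.64e-08), the pyrimidine enzyme UMPS -0.73 (adjusted p = 9.70e-07) and the purine enzyme GART -0.70 (adjusted p = 6.40e-08). RRM2B, the p53-inducible small subunit of ribonucleotide reductase, rose by 0.65 (adjusted p = 0.000695). Its partner RRM1 and its paralog RRM2 fell, as given above.

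Of 21 genes of E2F and S-phase entry control, 7 (33.3%) were lower and 3 (14.3%) higher in WT cells under the drug, where 22.5% and 22.7% of all genes tested were, and the median was -0.15. The E2F partner TFDP1 had -1.18 (adjusted p = 1.31e-08), the phosphatase CDC25A -0.88 (adjusted p = 1.29e-08) and the CDK subunit CKS1B -0.74 (adjusted p = 3.90e-08). TFDP2, another E2F partner, rose by 0.58 (adjusted p = 1.40e-06), E2F2 by 0.41 (adjusted p = 0.00824) and the pocket protein RB1 by 0.31 (adjusted p = 0.0449). The E2F2 call was lost without WT DMSO replicate 2 (adjusted p = 0.0982), and that of RB1 held in 5 of 14 settings and ended on leaving out any WT DMSO replicate, or replicate 2 or 3 of WT GSK-LSD1 (adjusted p up to 0.313). Of 9 replication checkpoint genes, 2 fell, RAD1 at -0.71 (adjusted p = 1.01e-05) and CHEK1 at -0.36 (adjusted p = 0.00139), with a median of -0.08, a share of 22.2% that is near that of all genes tested. Of 35 mitosis genes, 15 (42.9%) fell and none rose, with a median of -0.26. Those of lowest p were CDC20 at -0.77 (adjusted p = 9.56e-08), CCNB1 at -0.59 (adjusted p = 4.19e-05) and BUB1 at -0.48 (adjusted p = 6.79e-05). The calls in treated WT cells were thus not confined to replication genes. In insR cells under the drug, 0 genes of these 5 lists were called, where 0.505% of all genes tested were, so few calls could arise in either case. Positive response differences were called in 36.8% of other replication, 61.1% of other nucleotide, 37.1% of mitosis, 19% of E2F and 22.2% of checkpoint genes. Negative ones were called in 0% to 4.76% of a list, and 13.3% and 11.8% of all genes were positive and negative. Under GSK-LSD1, insR was higher for 55.3%, 72.2%, 68.6%, 38.1% and 22.2% of these lists, and lower for 2.86% to 14.3%. Of all genes, 27% were higher and 27.5% lower.

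**Figure D5:**
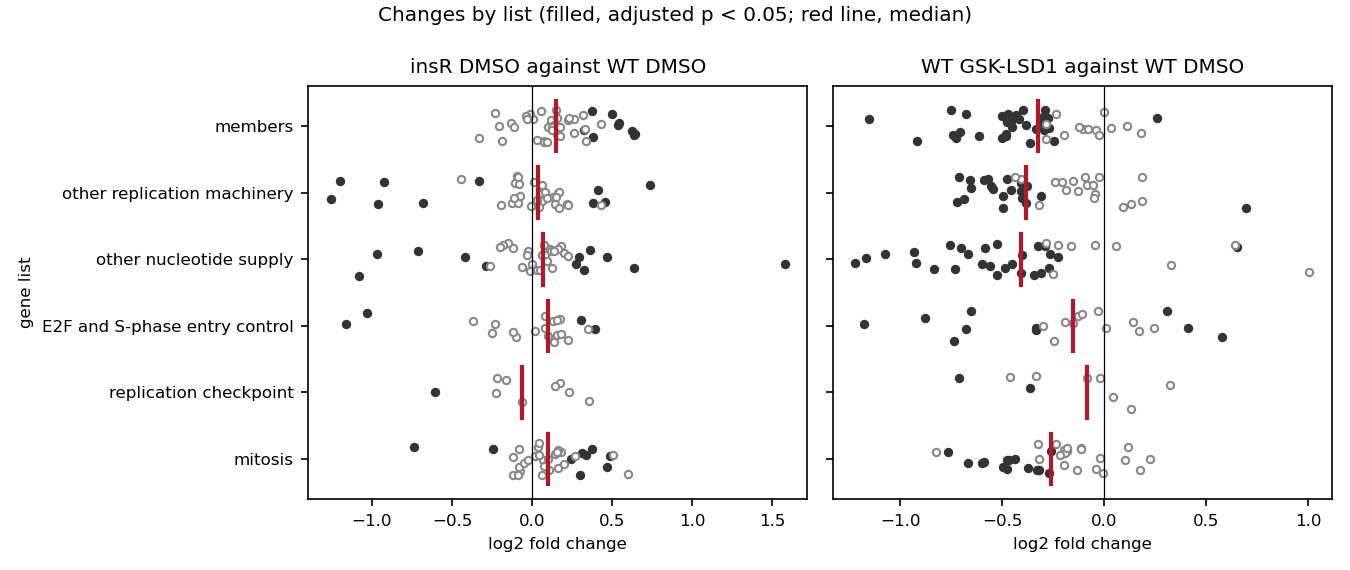
Log2 fold change of each gene (points) in the 44 members and in 5 further lists, for insR against WT in DMSO (left) and for GSK-LSD1 against DMSO in WT cells (right), with the list median as a red line. On the right the medians are -0.32 for the members, -0.38 and -0.41 for the other replication and nucleotide genes and -0.26 for mitosis. Those of E2F and S-phase entry control and of the replication checkpoint are -0.15 and -0.08.

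Between the untreated cells, 4 of 38 genes of the other replication machinery (10.5%) were higher and 6 (15.8%) lower in insR DMSO, near the 14.5% and 15.6% of all genes tested. RPA1, the large RPA subunit, was at 62.1, 59.7 and 60.6 CPM in insR DMSO, against 104, 119.5 and 124 CPM in WT DMSO, a log2 fold change of -0.93 (SE 0.10, adjusted p = 5.86e-08). RPA2 and RPA3 of the same complex were higher in insR DMSO, so its subunits differed in opposite directions. RFC3, named after its values were seen, was at 91.9, 84.1 and 105 CPM in insR DMSO, against 192, 208 and 272 CPM in WT DMSO, a log2 fold change of -1.26 (SE 0.13, adjusted p = 1.04e-06). RFC2, RFC4 and RFC5 had -0.03, 0.32 and 0.10 and were not called. GMNN had -0.96 (adjusted p = 7.95e-09) and the ribonuclease subunit RNASEH2B -1.20 (adjusted p = 3.68e-09), and TOP2A, POLD3 and CHTF18 were higher by 0.41, 0.46 and 0.73 (adjusted p = 0.000261, 0.00168 and 0.00173).

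Of 36 genes of the other nucleotide supply, 7 (19.4%) were higher and 5 (13.9%) lower in insR DMSO, against 14.5% and 15.6% of all genes tested. SHMT1, a cytosolic enzyme that feeds one-carbon units to thymidylate synthesis, was at 27.03, 36.5 and 41.1 CPM in insR DMSO, against 12.6, 10.9 and 11.3 CPM in WT DMSO, a log2 fold change of 1.58 (SE 0.16, adjusted p = 2.44e-08). IMPDH2, of guanine nucleotide synthesis, had 0.64 (adjusted p = 1.38e-07) and DUT, which removes dUTP, 0.36 (adjusted p = 0.00111). The purine enzyme PFAS had -1.08 (adjusted p = 1.65e-06), the CTP synthase CTPS2 -0.97 (adjusted p = 3.54e-05) and the pyrimidine enzyme CAD -0.42 (adjusted p = 0.000167). Of 21 genes of E2F and S-phase entry control 2 (9.52%) were higher and 2 (9.52%) lower, below both of those shares of all genes. E2F3 had -1.16 (adjusted p = 1.28e-09) and RB1 -1.03 (adjusted p = 1.17e-06), and CDC25A was higher by 0.30 (adjusted p = 0.00629) and LIN52 by 0.39 (adjusted p = 0.0231), a call that ended on leaving out replicate 1 or 2 of WT DMSO or of insR DMSO (adjusted p up to 0.141). CHEK1 was the 1 of 9 checkpoint genes called (11.1% lower, where 15.6% of all genes tested were), at -0.61 (adjusted p = 5.22e-06). Of 35 mitosis genes 7 (20%) were higher and 2 (5.71%) lower, where 14.5% and 15.6% of all genes tested were. CDC20 had 0.49 (adjusted p = 4.72e-05), CENPE 0.38 (adjusted p = 0.000293) and UBE2C 0.47 (adjusted p = 0.000569). AURKB had -0.74 (adjusted p = 4.72e-06) and BUB1B -0.24 (adjusted p = 0.0345). The BUB1B call ended on leaving out replicate 1 or 3 of WT DMSO or replicate 2 or 3 of insR DMSO (adjusted p up to 0.137).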

How the data were processed

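RNA was measured in 12 libraries, and per the labels' protocols the kit was QuantSeq 3' FWD. The submitters' processing notes name bcl2fastq 2.2, STAR 2.6.0c, HTSeq 0.9.1, DESeq2 and hg19. Neither the gene annotation nor the strand setting is given in the sources used here, which leaves genes that overlap, or lie antisense to each other, uncertain. Per the file headers and values, the deposited counts are unnormalized whole reads. The deposited signal table is the same counts scaled by a size factor for each library, and 100% of its values were whole, to a tolerance of 0.01, when scaled back.

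Counts were tested with edgeR 4.0.16 in R 4.3.3 (TMM, filterByExpr, robust quasi-likelihood fit to all 12 libraries), with Benjamini-Hochberg adjustment over 12864 genes and calls under 0.05. Entries that name no gene stayed out of library sizes, and 52181 of 63677 identifiers had a symbol. The SE is the log2 fold change over the root of F. The fit was tested on simulated data. The members, lists, tests and naming rule were chosen with earlier results of these data known. Library values are given for the called members with the largest changes, up to 12 in the WT response and 8 in each other comparison, and up to 3 genes per direction are named in each further list by lowest p. Floors and intervals on shares cover counting error only. Alternatives were DESeq2 1.42.0, scaling by its size factors or by the upper quartile, and no filter beyond 1 count. The others were limma 3.58.1 (voom on counts, and trend on log2 of the deposited signal plus 1), a replicate block, fits to the compared groups alone and leaving out each library. Promoters were read from a RefSeq table. Tables and plots used Python 3.11.15, numpy 2.4.6, pandas 2.3.3, scipy 1.17.1 and matplotlib 3.10.9.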

Additional observations from a re-analysis of the deposited data

Results flagged for a closer look

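The response to GSK-LSD1 differed between insR and WT cells, by an interaction term tested with edgeR's quasi-likelihood test, for 20 members. All values are the insR log2 response minus the WT log2 response, and all are positive. The polymerase and primase genes POLE2, PRIM1, POLD2 and POLA1 had differences of 1.06, 0.51, 0.46 and 0.37. Of the MCM subunits, MCM4 and MCM2 had 0.71 and 0.71, MCM6 had 0.54 and MCM3 had 0.47. The licensing gene CDC6 had 0.45 and the GINS subunit GINS2 had 0.59. FEN1, RFC4 and RFC5, of Okazaki fragment processing and clamp loading, had 0.77, 0.76 and 0.50. At the fork, TIPIN had 0.79, RPA3 0.59, CLSPN 0.51 and RPA2 0.39. Of the deoxynucleotide genes, RRM1 and TYMS had 0.44 and 0.47, and cyclin E1, CCNE1, had 0.81.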

How the results depend on the processing

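Of the 44 members, 25 to 29 were called in the WT response on leaving out each library and 27 to 31 under the other alternatives, and 0 in the insR response under all of them. The response difference was called for 17 to 21 on leaving out a library and 19 to 22 otherwise, insR against WT in DMSO for 8 to 11 and 8 to 10, with CCNE1 lower in 1 of these settings, and insR against WT under GSK-LSD1 for 28 to 33 and 31 to 33. The median log2 fold change of the members was -0.36 to -0.28 in the WT response and 0.36 to 0.43 for the response difference over all alternatives. No member's called value changed sign. Over all genes, the insR response had 65 calls, 118 with no filter beyond 1 count, 39 with limma-trend, and 28 to 45 on leaving out a library, and the cause was not tested. With a replicate block, members called numbered 31 in the WT response, 0 in the insR response, 20 in their difference, 10 for insR against WT in DMSO and 33 under GSK-LSD1. The 20 were not all the same genes, since the block lost RFC4 (adjusted p = 0.0981) and gained CDC45 (adjusted p = 0.0438), and in DMSO it gained PCNA (adjusted p = 0.0264). Deviations of same-numbered libraries from their group means correlated at -0.169 to 0.198. Libraries with different numbers were not compared in this way, so these values cannot decide whether same-numbered libraries were paired. The median 95% interval of a member was 0.46 wide on the log2 scale in the WT response and 0.64 for the response difference, which limits the size of change that these libraries can show.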

Other observations

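For insR against WT in DMSO, chromosome 13 stood out after the values were seen. Of 224 genes tested there, 61.2% were called lower and 4.46% higher by edgeR's quasi-likelihood test, with a median log2 fold change of -0.70. On the other chromosomes the share called lower was 6.85% to 27.6% and the median -0.12 to 0.09. The share was 27.6% on chromosome 17, 25.4% on chromosome 11, 22.7% on chromosome 21 and 21.2% on chromosome 6. The medians of chromosomes 17, 11, 21 and 6 were -0.069, -0.115, -0.051 and 0.015. Of the further replication, nucleotide, E2F and checkpoint genes, RFC3 had -1.26, RNASEH2B -1.20 and RB1 -1.03 on chromosome 13, and TFDP1 had -0.23 (adjusted p = 0.111) there and was not called. Lower genes of these lists on chromosome 6 were E2F3 at -1.16 and GMNN at -0.96. Those on chromosome 17 were PFAS at -1.08 and RPA1 at -0.93, and that on chromosome 11 was CHEK1 at -0.61. Lower calls also lay on chromosome 2 (3 genes, CAD at -0.42 among them), chromosomes 3 and 7 (1 each) and chromosome X (CTPS2 at -0.97). On chromosome 17, 3 genes of these lists were called higher, SHMT1 at 1.58 among them. On chromosomes 6 and 11, 1 each was higher, which was POLD3 at 0.46 on chromosome 11. No member lies on chromosome 13. Chromosomes were taken from RefSeq by symbol.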
